A study of Mus musculus with 48 samples.

Results

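The 7 rows of the count table numbered 12270, 15020, 11516, 2224, 5105, 27859 and 3828, counted from the first row after the header, are described here out of 32377 rows. They were selected on measured values of the same libraries: a wave over 24 h in wild-type cells whose fitted peak fell between 24 and 30 h, and a lower level in cells without Bmal1. The table carries no gene names, so no row can be given a gene, a function, a place in the genome or a sequence. RNA came from AML12 cells, an immortalised line of mouse hepatocytes, and was read by bulk Smart-seq3, a full-length RNA sequencing method for small inputs. The cells were either wild type (WT) or Bmal1-KO (KO). Both genotypes were grown in medium with serum, insulin, transferrin, selenium and dexamethasone, a synthetic glucocorticoid, and both were given a 1-h pulse of dexamethasone to set their clocks to a common phase. For each genotype there were 4 libraries at each of 18, 24, 30, 36, 42 and 48 h, or 48 libraries in 12 groups. The hours were read from the sample titles, which do not give their starting point. The labels do not say whether the KO line is 1 clone, or whether the 4 libraries of a group were separate cultures, so p-values here measure the spread between libraries, which may be technical. The liver cell identity and the loss of Bmal1 were not checked, because markers and Bmal1 could not be found among unnamed rows.

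The mammalian clock is a feedback loop of transcription. BMAL1 pairs with CLOCK and binds E-box elements of DNA, where it drives output genes as well as its own repressors, the PER and CRY proteins and the REV-ERB receptors. Direct E-box targets therefore tend to rise together once a day, and in the liver they include regulators of metabolism. Dexamethasone can synchronise the clocks of cultured cells through the glucocorticoid receptor, which also acts on many genes directly.

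Values are CPM, counts scaled to the size of each library, with TMM factors that correct for library composition. Library totals ranged from 72398 to 795991 counts. The 3 libraries under 100000 counts were WT 18 h replicate 2, WT 24 h replicate 2 and KO 48 h replicate 3. The number in the library name was 16 for WT from 18 to 30 h and 17 from 36 to 48 h, and it was 18 and 19 for the same times in KO. A step between 30 and 36 h therefore cannot be told apart from a step between library numbers, and KO cannot be told apart from its own numbers either. The letter in the library name was A to D at 36 h only and M to P at 30 h only, in both genotypes. It was E to H at 18 and 42 h and I to L at 24 and 48 h. A low at 36 h in both genotypes therefore cannot be told apart from its letters. All 7 rows passed the filter on low counts, and 6 of the 7 also passed it in the KO libraries alone, where row 5105 did not. Levels are compared between samples of a row and not between rows, since transcript lengths are not known. With bulk RNA, fewer cells that express a gene and less of its RNA per cell cannot be told apart.

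The rule gives no cut-off, but the 7 were also the 7 with the smallest adjusted p for the WT wave among 15 rows that peaked between 24 and 30 h. The last of them, row 3828, had an adjusted p of 0.00487 and an amplitude of 0.38. The next row outside had 0.00613, an amplitude of 0.36 and a KO minus WT change of -1.07 (edgeR quasi-likelihood, Benjamini-Hochberg). Amplitude is the height of the fitted wave above its mean, in log2 units. The WT wave and the lower KO level are given below as descriptions, because they chose the rows. Of all 8617 rows tested, 0.383% had a called WT wave and 22.8% were called lower in KO, where a call is an adjusted p under 0.05.

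In WT the 7 rows were high at 30 or 48 h and low at 36 or 18 h. Row 12270 had the widest swing. Its WT libraries were at 1234, 736, 1075 and 1142 CPM at 18 h and at 1814, 1480.2, 1555 and 2026 CPM at 24 h, in replicate order here and below. They were at 2358, 2433, 1740.4 and 2232 CPM at 30 h and at 461, 396, 421 and 460.0 CPM at 36 h. At 42 h they were at 845, 759.9, 1035 and 1041 CPM, and at 48 h at 1755, 2309, 1598 and 1529.9 CPM. The 4 libraries at 36 h lay below every other WT library, and the mean at 30 h was 5.04 times that at 36 h. The fitted wave had an amplitude of 0.93 (SE 0.10), a peak-to-trough range of 3.63-fold and a peak at 26.1 h (SE 0.43).

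In KO the same row was at 332, 311, 325 and 461 CPM at 18 h and at 444, 426, 268 and 454 CPM at 24 h. It was at 344, 379, 352 and 292 CPM at 30 h and at 119, 111, 126 and 199 CPM at 36 h. The values were 347, 341, 310.0 and 269 CPM at 42 h and 330.3, 304, 725 and 242 CPM at 48 h. KO libraries lay below WT libraries at all 6 times without overlap, and the KO libraries at 36 h again lay below those of every other KO group. The 725 CPM came from KO 48 h replicate 3, one of the shallow libraries, and rested on 55 counts. Over 24 libraries each, the row was at 1352 ± 649 CPM in WT and 325.6 ± 129.1 CPM in KO (SD), or 24.1% of WT, a log2 change of -1.99 (SE 0.08).

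**Figure D1:**
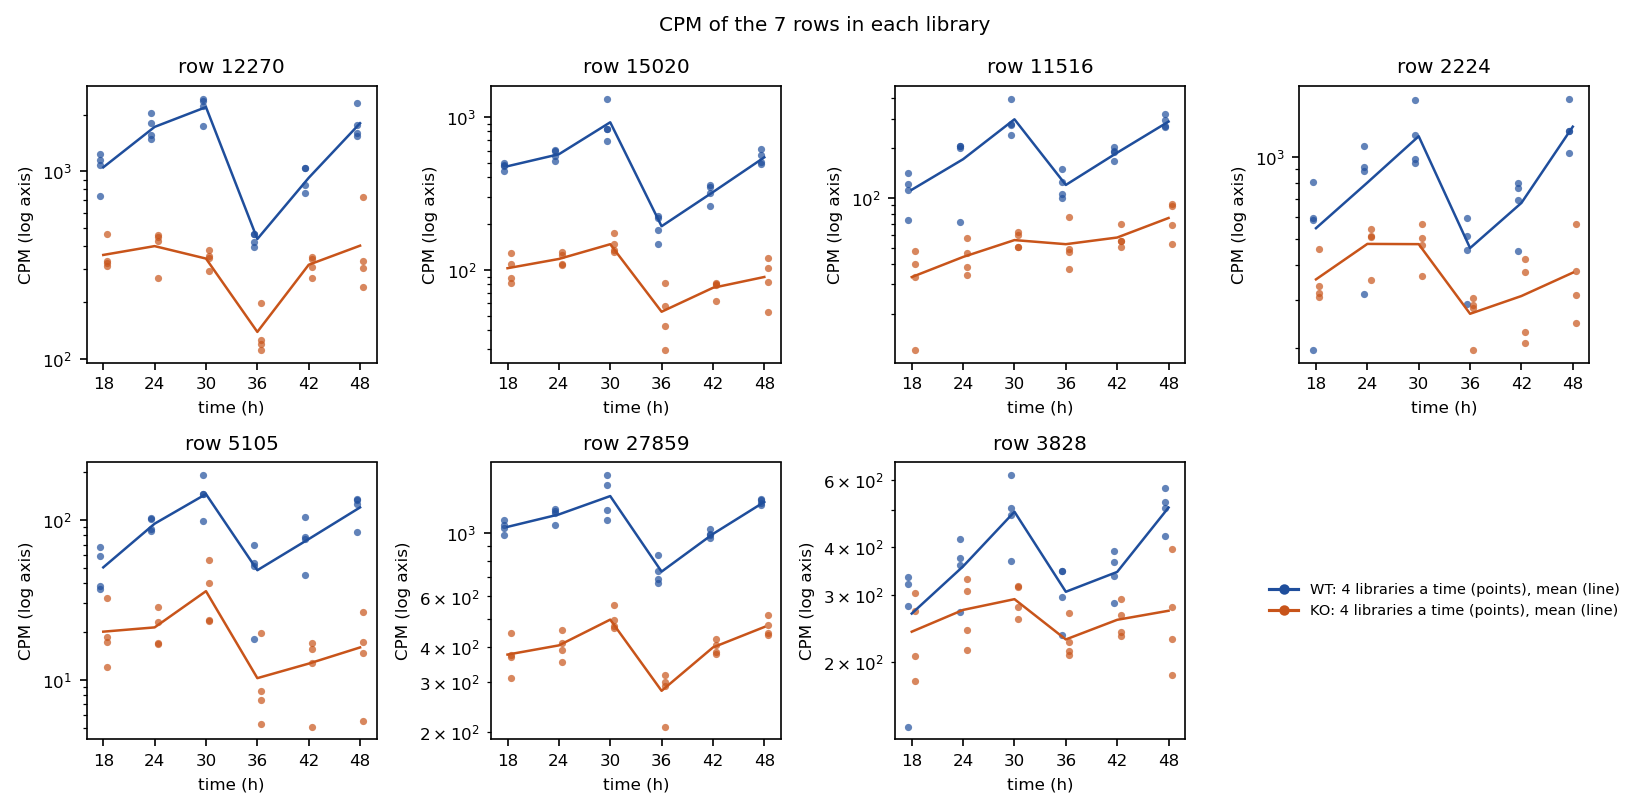
CPM (log axis) of the 7 rows against time in hours, with 1 point per library and lines through the means of 4 libraries, WT in blue and KO in orange. Row 12270 has a WT mean of 2191 CPM at 30 h and 434 CPM at 36 h, and in KO 342 and 139 CPM. Row 11516 has KO means of 55.6 and 52.5 CPM at these times.

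Row 15020 had its highest and lowest WT means at the same times as row 12270. Its WT libraries were at 438, 478, 482 and 497 CPM at 18 h and at 553, 512, 608 and 598 CPM at 24 h. They were at 689, 836, 836 and 1313 CPM at 30 h and at 223, 219, 146 and 180.4 CPM at 36 h. At 42 h they were at 315, 260.0, 348 and 359.8 CPM, and at 48 h at 508, 561, 488 and 611 CPM. The second high was lower than the first, with means of 542 ± 55.2 CPM at 48 h and 918 ± 272 CPM at 30 h (SD, n = 4). The KO libraries were at 88.4, 82.1, 108 and 129 CPM at 18 h, at 124, 129.8, 108 and 107 CPM at 24 h and at 174, 131, 135 and 146 CPM at 30 h. They were at 42.6, 81.8, 29.8 and 57.6 CPM at 36 h, at 79.6, 62.3, 81.3 and 80.6 CPM at 42 h and at 102, 82.8, 52.7 and 119.5 CPM at 48 h. No KO library reached the WT libraries of its time, and the KO mean was 19.4% of the WT mean, the smallest share among the 7 rows. The log2 change was -2.26 (SE 0.08), and the WT amplitude was 0.71 (SE 0.10) with a peak at 27.4 h (SE 0.57).

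Row 27859 had the smallest WT wave of the 7 and little spread between libraries. Its WT libraries were at 1047, 1116, 985 and 1068 CPM at 18 h, at 1217, 1067, 1181 and 1198 CPM at 24 h and at 1118, 1208, 1482 and 1603 CPM at 30 h. They were at 839, 737, 691 and 667 CPM at 36 h, at 966, 987, 1037 and 991 CPM at 42 h and at 1274, 1326, 1307 and 1254 CPM at 48 h. This gave an amplitude of 0.34 (SE 0.06), a range of 1.61-fold and a peak at 25.9 h (SE 0.71). The KO libraries were at 368, 311, 373 and 446 CPM at 18 h, at 412, 354, 390.4 and 458 CPM at 24 h and at 472, 466, 494 and 558 CPM at 30 h. They were at 289.8, 318, 301 and 209 CPM at 36 h, at 425, 382, 407 and 375 CPM at 42 h and at 445, 439, 475 and 516 CPM at 48 h. The highest KO library, at 558 CPM, lay below the lowest WT library, at 667 CPM, which was so for no other row of the 7. KO was at 36.7% of WT, a log2 change of -1.44 (SE 0.05).

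Row 11516 had like WT means at 30 and 48 h. Its WT libraries were at 141, 73.6, 121 and 112 CPM at 18 h and at 206, 71.2, 207 and 201 CPM at 24 h. They were at 241, 279, 276 and 399 CPM at 30 h and at 150.2, 106, 124 and 99.2 CPM at 36 h. At 42 h they were at 203, 167, 188 and 193 CPM, and at 48 h at 273, 294, 269.5 and 320.4 CPM. The low values of 73.6 and 71.2 CPM came from the 2 shallow WT libraries, with 6 and 5 counts. The WT amplitude was 0.59 (SE 0.09) and the peak at 27.2 h (SE 0.62). The KO libraries were at 33.2, 47.9, 12 and 39.9 CPM at 18 h, at 46.2, 57.3, 34.2 and 38.2 CPM at 24 h and at 50.3, 50.3, 59.9 and 62.0 CPM at 30 h. They were at 76.7, 49.1, 37.2 and 47.1 CPM at 36 h, at 70.0, 54.5, 50.8 and 55.2 CPM at 42 h and at 69.0, 52.4, 92.3 and 88.8 CPM at 48 h. KO stayed below WT at each time without overlap, at 27.03% of the WT mean and a log2 change of -1.86 (SE 0.09). The KO means of this row were lowest at 18 h and highest at 48 h, at 33.2 ± 15.4 and 75.6 ± 18.6 CPM (SD, n = 4).

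The other 3 rows overlapped between genotypes at some times. Row 2224 ranged in WT from 196 to 1632 CPM with a median of 804, and in KO from 196 to 567 CPM with a median of 361. Its WT means were lowest at 36 h, at 463 ± 129 CPM, and highest at 48 h, at 1288 ± 250.3 CPM (SD, n = 4). KO was at 45.6% of WT, a log2 change of -1.11 (SE 0.10), and the genotypes did not overlap at 3 of the 6 times. At 18 and 24 h the only WT values within reach of KO, 196 and 313 CPM, came from the shallow WT libraries, with 16 and 22 counts. The highest KO value, 567 CPM, came from the shallow KO 48 h replicate 3, with 43 counts. The WT amplitude was 0.66 (SE 0.10), with a peak at 26.6 h (SE 0.63).

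Row 5105 rested on the fewest counts, 998 over the WT libraries and 164 over the KO libraries, with a lowest count of 1. It ranged from 18.04 to 191 CPM in WT, with a median of 85.0, and from 5.08 to 56.2 CPM in KO, with a median of 17.02. Its WT mean was 145 ± 37.7 CPM at 30 h and 48.4 ± 21.8 CPM at 36 h (SD, n = 4). The log2 change of -2.26 (SE 0.16) was the largest of the 7 in size, within its error of that of row 15020. The WT amplitude was 0.64 (SE 0.11), with a peak at 27.8 h (SE 0.68), and the genotypes did not overlap at 5 times.

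Row 3828 kept the most RNA in KO. It ranged from 135 to 619.6 CPM in WT, with a median of 363, and from 178 to 396 CPM in KO, with a median of 262. The 135 CPM came from the shallow WT 18 h replicate 2, with 11 counts, and the 396 CPM from the shallow KO 48 h replicate 3, with 30 counts. In this row KO was at 68.6% of WT, a log2 change of -0.56 (SE 0.07), and the genotypes did not overlap at 2 times. The WT amplitude was 0.38 (SE 0.07) and the peak at 27.6 h (SE 0.79). Over all 6 times, 4 of the 7 rows had KO below WT without overlap, as did 0.406% of the tested rows. This follows from how the rows were chosen.

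The size of the gap between genotypes differed from time to time. The median log2 change of the 7 rows was -1.47 at 18 h, -2.07 at 24 h and -2.14 at 30 h. It was -1.38 at 36 h, -1.54 at 42 h and -2.02 at 48 h. The median over all tested rows stayed between -0.011 and 0.005 at the same times. Row 27859 kept an even gap, from -1.33 (SE 0.12) at 42 h to -1.55 (SE 0.13) at 24 h. In row 12270 the gap went from -1.54 (SE 0.18) at 42 h to -2.69 (SE 0.18) at 30 h, and in row 5105 from -1.23 (SE 0.36) at 18 h to -3.16 (SE 0.42) at 48 h. These values share the contrast that chose the rows and carry no test.

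**Figure D2:**
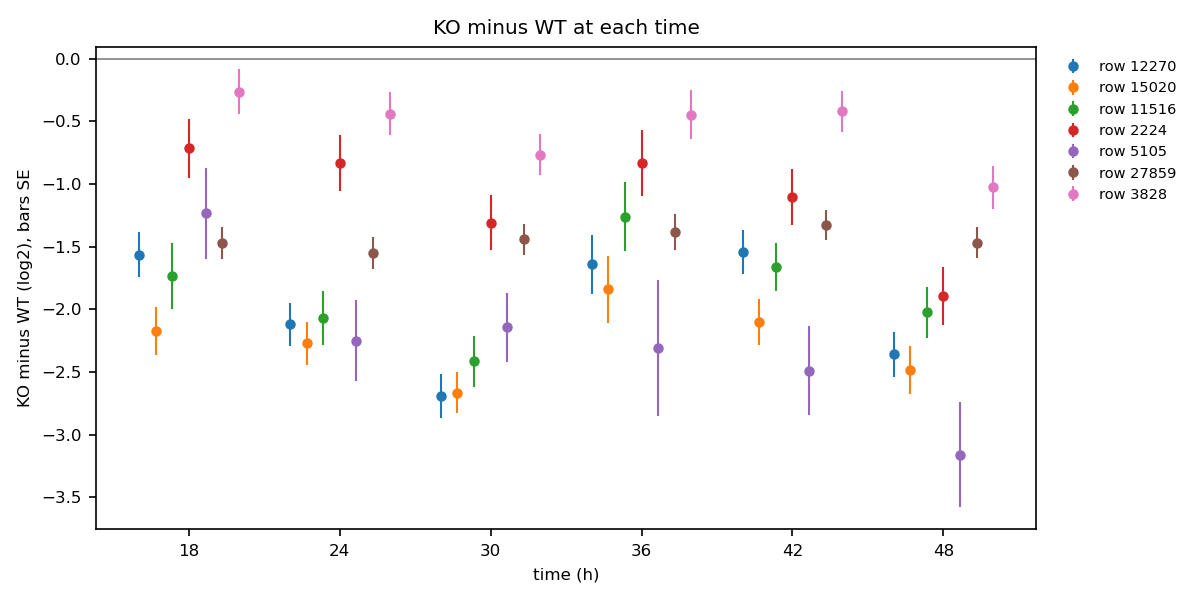
KO minus WT in log2 units against time in hours for each of the 7 rows, with bars of 1 SE from the fit over all libraries. All 42 values lie below 0, with row 3828 nearest to 0 at each time and row 5105 lowest at 48 h, at -3.16.

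The rule used the KO level but not the shape of the KO time course. The tests in KO were still not fully independent of it. They pooled the spread over both genotypes, and a choice on a small adjusted p in WT favours rows with a small estimated spread. Rows 12270, 15020 and 27859 changed over the 6 KO times, with adjusted p of 3.43e-04, 0.00176 and 0.00325 (edgeR quasi-likelihood F test, Benjamini-Hochberg over 8617 rows). Of all tested rows 0.963% were called, which is not an even comparison with the 3 calls among the 7, for the reason just given. The same holds for the shares beside the KO tests below. In each of the 3 the KO mean was lowest at 36 h, as it was in WT. The KO means at 36 h were 139 ± 40.4 CPM in row 12270, 52.9 ± 22.4 CPM in row 15020 and 279 ± 48.1 CPM in row 27859 (SD, n = 4). The highest means were 400.4 ± 219.6 CPM at 48 h, 146 ± 19.5 CPM at 30 h and 497 ± 42.3 CPM at 30 h, in the same order. Without the shallow KO 48 h replicate 3 the mean of row 12270 at 48 h was 292 ± 45.03 CPM (SD, n = 3), below its means at 18, 24, 30 and 42 h, and its highest mean was then that at 24 h, 398 CPM. Rows 11516, 2224, 5105 and 3828 did not pass, with adjusted p of 0.275, 0.154, 0.192 and 0.798. Row 5105 did not pass the filter on low counts in the KO libraries alone, so its KO tests here and below say little. Row 2224 passed without the 3 shallow libraries, with an adjusted p of 0.00411 (edgeR). It also passed with the KO libraries alone, at 0.00225, where 196 of all tested rows were called against 83 in the reported fit. With no filter on low counts it passed at 9.54e-05, where 191 of 18382 rows were called.

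**Figure D3:**
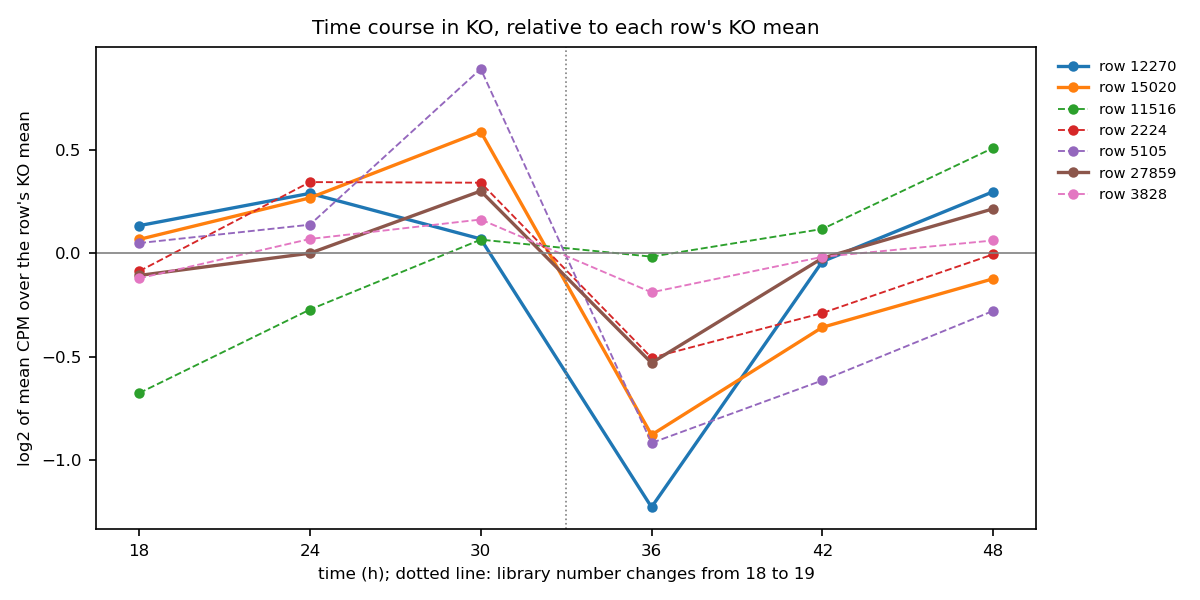
Mean CPM of each row in KO at each time, as the log2 ratio to the mean of its 6 KO times, against time in hours, with solid lines for the 3 rows that passed the F test over KO times and dashed lines for the other 4. A dotted line marks the change of library number between 30 and 36 h. Of the 7 rows, 6 are lowest at 36 h, and row 11516 is lowest at 18 h.

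Since 36 h is also the first time of the second KO library number, the KO times were compared within each number. Each time within a number has its own library letters, so these tests do not separate time from letter. These tests were added after the values had been seen. With the number taken into account, rows 12270 and 27859 again changed over time, with adjusted p of 0.0116 and 0.0223, where 0.0464% of tested rows were called. Row 15020 did not pass, at 0.519. Among 36, 42 and 48 h alone, row 12270 was called at 0.00295, the only call over all rows (0.0116%), and row 27859 had an adjusted p of 0.108. Among 18, 24 and 30 h none of the 7 was called, against 0.0232% of all rows. There 1 of the 7 had an unadjusted p under 0.05, row 27859 at 0.00700, as did 8.63% of all rows. DESeq2 and limma were not run for these subsets.

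Levels 12 h apart were also compared within a library number. The times of each pair still differed in library letter. From 36 to 48 h in KO, row 12270 rose 2.55-fold (log2 1.35, SE 0.24, adjusted p = 0.00217) and row 27859 rose 1.65-fold (log2 0.73, SE 0.15, adjusted p = 0.0226). These were the 2 calls among all tested rows (0.0232%). The call of row 27859 was lost when any of 6 libraries was left out, with an adjusted p of 0.314 without KO 36 h replicate 4, 0.187 without KO 48 h replicate 4 and 0.0583 to 0.0681 without KO 36 h replicate 1, 2 or 3 or KO 48 h replicate 1. That of row 12270 was lost without KO 36 h replicate 2, at 0.0583. The difference was positive in all 7 rows, with log2 values of 0.11 to 1.35 and a median of 0.53, beside a median of -0.001 over all tested rows. In WT the same difference was 0.69 to 2.07, with a median of 1.29, a value that the choice of rows had used.

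From 18 to 30 h none of the 7 passed in KO (edgeR), where 0.116% of all rows did. At an unadjusted p under 0.05 there were 3, rows 15020, 11516 and 27859, beside 10.5% of all rows, and DESeq2 and limma called 0. The log2 differences ran from -0.11 (SE 0.19) in row 12270 to 0.64 (SE 0.29) in row 11516, with a median of 0.41. Row 12270 had KO means at 18, 24 and 30 h of 357 ± 69.8, 398 ± 87.6 and 342 ± 36.1 CPM (SD, n = 4), where its WT mean went from 1047 to 2191 CPM.

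A 24-h wave in KO was not called for any of the 7 rows (edgeR quasi-likelihood), and 0.0116% of all tested rows, 1 row, were called. Of the 7, 4 had an unadjusted p under 0.05, as did 9.81% of all tested rows: row 12270 at 4.70e-04, row 27859 at 0.00147, row 15020 at 0.0116 and row 2224 at 0.0133. DESeq2 called row 12270 with an adjusted p of 0.0413, where it called 21 of all tested rows. The fit of the KO libraries alone called row 12270 at 0.0188 (edgeR), where 18 of all tested rows were called. With limma 0 of the 7 were called, and 3 of all tested rows. The KO amplitude was smaller than the WT amplitude in each row. It was 0.54 (SE 0.13) in row 12270, 0.43 (SE 0.14) in row 15020 and 0.26 (SE 0.07) in row 27859. It was 0.34 (SE 0.11) in row 2224, 0.43 (SE 0.20) in row 5105, 0.14 (SE 0.14) in row 11516 and 0.11 (SE 0.08) in row 3828. Single libraries moved some of these: row 5105 was at 0.27 without KO 30 h replicate 3, and row 11516 at 0.21 without KO 42 h replicate 1. As a share of the WT amplitude these ran from 23.6% in row 11516 to 76.03% in row 27859, with a median of 57.99%. The WT amplitudes were chosen to be strong, so the direction of this difference is no evidence of its own. The median KO amplitude of the 7 was 0.34, and that of all tested rows 0.16.

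The fitted KO peaks lay close to the WT peaks in 3 of the 7 rows. They were at 26.2 h (SE 1.05) in row 27859, 26.8 h (SE 1.35) in row 2224 and 27.3 h (SE 1.37) in row 15020, each within 0.271 h of the WT peak. None of these 3 KO waves was called. All 3 rows had their lowest mean at 36 h in both genotypes, a low that cannot be told apart from the library letters of that time. Row 12270 had its KO peak at 23.5 h (SE 0.81), a KO minus WT difference of -2.62 h, and row 5105 at 30.02 h (SE 1.94), a difference of 2.23 h. The error of the WT peak was 0.43 h in row 12270 and 0.68 h in row 5105. The KO wave of row 5105 rested on 164 counts and had an unadjusted p of 0.0851 (edgeR quasi-likelihood), so its KO peak is uncertain too. In rows 11516 and 3828 the amplitude was within 2 SE of 0, and the errors of the peak time were 4.13 and 2.92 h, so their KO peaks were not defined at this depth. Differences of peak time between genotypes were not tested.

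**Figure D4:**
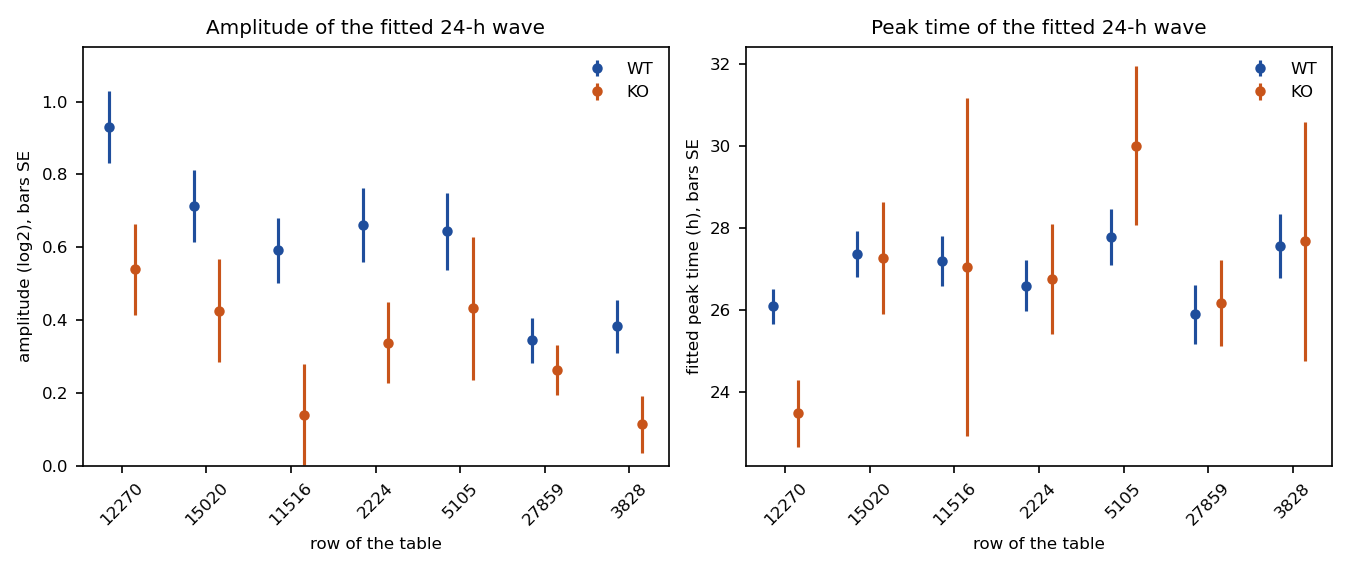
Amplitude in log2 units (left) and peak time in hours (right) of the fitted 24-h wave for each row, WT in blue and KO in orange, with bars of 1 SE. WT amplitudes span 0.34 to 0.93 and KO amplitudes 0.11 to 0.54; the long bars of rows 11516 and 3828 in the right panel belong to KO waves that cannot be placed in time.

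A fitted 24-h wave has the same height at 18 and 42 h, and at 24 and 48 h, so differences between these pairs were not used by the rule, although a row with a large one was less likely to be called rhythmic. Row 11516 was higher at 48 h than at 24 h in WT, at 289 ± 23.4 against 171 ± 66.9 CPM (SD, n = 4), a 1.49-fold rise (log2 0.58, SE 0.16, adjusted p = 0.0276, edgeR). It was the only one of the 7 called, where 2.32% of all rows were. The adjusted p was 0.0696 without the shallow library WT 24 h replicate 2, 0.0594 without WT 24 h replicate 4, 0.0666 without WT 48 h replicate 2 and 0.0829 without WT 48 h replicate 4. From 18 to 42 h in WT none passed in edgeR and 0.638% of all rows did. Row 11516 was 1.55-fold higher at 42 h (log2 0.63, SE 0.17, adjusted p = 0.0575), and row 15020 had a log2 difference of -0.54 (SE 0.15, adjusted p = 0.0614). At an unadjusted p under 0.05 there were 3 of the 7, beside 10.5% of all rows, limma called row 15020 at 0.04995, and DESeq2 called 0. These pairs compare library number 16 with 17, so 1 cycle and 1 library number cannot be told apart.

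In KO none of the 7 was called between times 24 h apart (edgeR, DESeq2 and limma), where edgeR called 0.128% of all rows from 18 to 42 h and 0.151% from 24 to 48 h. At an unadjusted p under 0.05 there were 2 of the 7 in each, beside 6.75% and 8.52% of all rows. Row 11516 was among them in both, with log2 differences of 0.70 (SE 0.28) and 0.62 (SE 0.25). Row 11516 therefore had positive differences over both pairs in both genotypes, and row 15020 negative ones. The sign differed between genotypes in 3 rows from 18 to 42 h and in 4 from 24 to 48 h, the latter rows 12270, 2224, 5105 and 3828. Row 2224 had the most different values from 24 to 48 h, at 0.58 (SE 0.21) in WT and -0.48 (SE 0.24) in KO. The test of that difference between genotypes, added after the values had been seen, gave an unadjusted p of 0.00147 and an adjusted p of 0.165 (edgeR). It called none of the 7 from 24 to 48 h, with 2 at an unadjusted p under 0.05, and none from 18 to 42 h, with 1. Of all tested rows, 0.104% and 0.0348% were called, and 10.2% and 7.2% had an unadjusted p under 0.05.

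**Figure D5:**
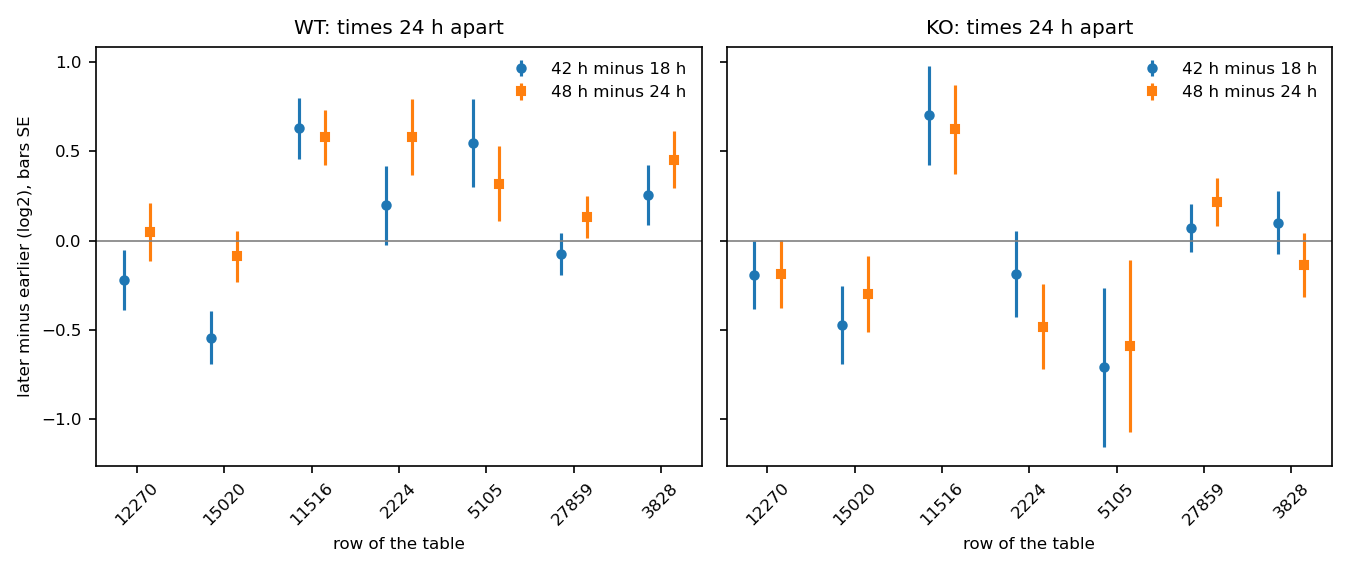
Differences in log2 units between times 24 h apart for each row, in WT (left) and KO (right), 42 h minus 18 h as circles and 48 h minus 24 h as squares, with bars of 1 SE. Row 11516 is above 0 in all 4 comparisons, at 0.58 to 0.70, and row 15020 below 0 in all 4.

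The 7 rows varied together in part. Over the 6 KO time means of log2 CPM, 17 of the 21 pairs of rows correlated positively, from -0.19 to 0.96 with a median of 0.73. The 4 negative pairs all held row 11516, with rows 12270, 15020, 2224 and 5105. Within groups, where times and genotypes are removed, the correlation over the 48 libraries ran from -0.18 to 0.80 with a median of 0.28. It was highest for rows 2224 and 3828, at 0.80. Each pair shares its libraries, their depth and their scaling, so these values are a description.

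Among the tested rows outside the 7, the 2 whose 12 group means were most like the mean pattern of the 7 were row 4818, with a Pearson r of 0.98, and row 28421, also with 0.98. Row 4818 was at 40.2 ± 19.7 CPM in WT and 14.6 ± 7.12 CPM in KO, and row 28421 at 113 ± 33.6 and 47.2 ± 21 CPM (SD, n = 24). An r above 0.9 was reached by 139 of 8605 rows, so such a pattern over the 12 means was shared by many rows. Both genotypes enter these means, so r also reflects the level gap that chose the 7. In row 4818 the amplitude was 0.48 in WT and 0.47 in KO, and in row 28421 it was 0.43 and 0.40. A high r therefore need not mean a much smaller KO wave. Within the 7, r with their own mean ran from 0.92 in row 3828 to 0.98 in row 5105. The other 8 rows with a called WT wave that peaked between 24 and 30 h had KO amplitudes of 0.15 to 0.74 with a median of 0.28, against 0.11 to 0.54 and 0.34 in the 7. All of these 8 were also lower in KO, with log2 changes of -2.36 to -0.38, against -2.26 to -0.56 in the 7. Their WT amplitudes were 0.36 to 0.91, against 0.34 to 0.93. The sets overlap, and their difference was not tested because both were chosen on these values.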

How the data were processed

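Whole-number counts per row were deposited by the authors. Per the file headers they come from accepted, sorted and deduplicated alignments, and the submitters' processing notes name the aligner STAR, version 2.5.4b, with mouse mm10 as the genome. The counting tool, annotation, strand setting and use of molecular identifiers are not given in the sources used here. Deduplication can lower the counts of abundant rows. Of 180 columns, 48 matched a sample by library name and 132 were not used. The 7 rows, the lists and the tests were chosen with earlier results of these data known.

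Counts were analysed with edgeR 4.0.16 in R 4.3.3: filterByExpr (minimum count 10, minimum total 15) kept 8617 rows, with TMM factors and two-sided quasi-likelihood tests. Separate means for the 12 groups made up the first design. The wave design held, for WT and for KO, an intercept plus cosine and sine terms with a 24-h period. Benjamini-Hochberg adjustment ran over all 8617 rows, with calls under 0.05. SE come from the fits' covariance. The code was tested on simulated counts. Replicate libraries were compared by chi-square tests, and the largest p of 72 pairs was 5.43e-10, so no pair differed by the sampling of counts alone. The test cannot tell libraries of the same culture from those of separate cultures. Log2 CPM for correlations used a prior count of 2. Alternatives were DESeq2 1.42.0, limma 3.58.1, other size factors and filters, a replicate block, thinning and leaving out each library. All 7 rows are named. The rule for most-like rows took the 2 highest correlations with the mean standardised pattern of the 7, leaving out rows whose average log2 CPM was under 4. Lists of hepatocyte, fibroblast and clock genes could not be looked up in unnamed rows and were not analysed here.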

Additional observations from a re-analysis of the deposited data

Results flagged for a closer look

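In 5 of the 84 sets of 4 libraries (7 rows in 12 groups) 1 library stood apart from the other 3, where chance alone gives about 1 in 20, or 4.2. For row 12270 these were KO 18 h replicate 4, with 461 CPM beside 311 to 332 CPM in its group, and KO 24 h replicate 3, with 268 CPM beside 426 to 454 CPM. For row 15020 it was KO 42 h replicate 2, with 62.3 CPM beside 79.6 to 81.3 CPM, and for row 2224 KO 24 h replicate 4, with 355 CPM beside 510.1 to 542 CPM. For row 11516 it was WT 24 h replicate 2, with 71.2 CPM beside 201 to 207 CPM. That library is 1 of the 3 under 100000 counts, and without it the difference of row 11516 between 24 and 48 h in WT no longer passed (adjusted p = 0.0696, edgeR).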

How the results depend on the processing

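The calls rest on low depth, a median of 387536 counts per library, and single libraries decide several. For the KO wave, 0 of the 7 rows were called, against 1 with DESeq2, 1 with the KO libraries alone and 3 with no filter on low counts; with no filter or with at least 5 CPM in 4 libraries, the wave used the dispersion trend of the group means, since its own could not be fitted. For KO times, 3 were called, and 3 to 3 with each library left out in turn; it was 4, with row 2224 added, with no filter, with the KO libraries alone and without the 3 libraries under 100000 counts, and 0 within 18 to 30 h and 1 within 36 to 48 h. For 48 h minus 36 h in KO, 2 were called, against 1 with no filter, 1 with at least 5 CPM in 4 libraries, 0 after thinning all libraries to the smallest total, and 0 to 2 with single libraries left out. For 42 h minus 18 h in WT, 0 were called, against 1 with limma, 1 without the 3 libraries under 100000 counts and 0 to 2 with single libraries left out. For 48 h minus 24 h in WT, 1 was called, against 2 with no filter, 0 with the WT libraries alone, 0 without the 3 libraries under 100000 counts, 0 after thinning and 0 to 1 with single libraries left out. Thinning left 2991 rows to test, no filter 18382. Over all tested rows the KO wave was called for 21 with DESeq2, 18 with the KO libraries alone and 37 with no filter, against 1 in the reported fit. KO times were called for 196 with the KO libraries alone and 191 with no filter, against 83. For other settings the cause was not tested.

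Replicate numbers showed no pairing where it was checked, in the KO groups and in WT between 18 and 42 h and between 24 and 48 h. Same-numbered libraries there correlated at -0.10 to 0.14, and at most 2 of 4 in a contrast correlated best with their own number. Pairing of WT libraries within a library number was not checked. At WT 18, 24 and 30 h replicate 2 had the fewest counts each time, 77907, 72398 and 171040. A replicate block moved 42 h minus 18 h in WT from 0 to 2 called rows, 11516 (adjusted p = 0.0420, edgeR) and 15020 (0.0493), and changed no other count of the 7. Over all tested rows, calls ran from 0 to 37 for the KO wave (1 in the reported fit), 1 to 196 for KO times (83), 1 to 34 for 30 h minus 18 h (10) and 0 to 4 for 48 h minus 36 h (2) in KO. They ran from 0 to 86 for 42 h minus 18 h (55) and 67 to 272 for 48 h minus 24 h (200) in WT, and from 0 to 20 (11) and 3 to 16 (13) for the same pairs in KO. These ranges leave out the fits without single libraries. No direction reversed in KO minus WT, or in a time difference that was called in the reported or the alternative fit. Directions of differences called in neither fit were not checked. The KO minus WT changes of the 7 rows and their amplitudes stayed within 1 SD of log2 CPM between libraries of a group, a wider margin than their SE: thinning moved KO minus WT of row 15020 from -2.26 to -2.46 (SE 0.08 in the reported fit). The KO amplitude moved by over 1.5 times in row 11516, from 0.14 to between 0.05 (period 26 h) and 0.29 (library number as a term), in row 5105, from 0.43 to 0.27 (library number as a term, or without KO 30 h replicate 3), and in row 3828, from 0.11 to 0.20 after thinning. Against their SE, 15 values of peak time moved, for instance that of row 15020 in WT from 27.4 to 26.4 h without WT 30 h replicate 4.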
